A study of Mus musculus with 111 samples.

Results

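The comparison covered striatal microglia of R6/2 mice at 12 weeks of age, set against microglia of their wild-type (WT) littermates of the same age. The 6 R6/2 samples were the arrays titled R62_CD11b_12wk, and the 5 WT samples were those titled WT_CD11b_12wk, which made 11 of the 111 samples of the series in its 24 groups. R6/2 mice carry a transgene with exon 1 of the human huntingtin gene, with an expanded CAG repeat and under the human promoter, and are a fast-progressing model of Huntington's disease in which the transgene is not limited to 1 cell type. For each sample the striata of a litter were pooled by genotype after the subventricular zone had been cut away, and cells negative for the astrocyte transporter GLT1 and positive for CD11b were sorted from the dissociated tissue. RNA was measured on Affymetrix mouse arrays, and each of 18194 genes was represented by the probe set with the highest mean over all arrays. Of these genes, 11958 were bright enough to be tested, which took a mean log2 value of 5.43 over the microglia samples of both ages. No detection calls were used, and this limit only marks dim probe sets. All values below are log2 expression values as deposited, and a difference of 1 is a 2-fold difference. For another age, cell fraction or model, the pairs of groups were R6/2 and WT microglia at 6 weeks (5 samples each), R6/2 and WT GLT1+/CD11b- astrocytes at 12 weeks (6 and 5 samples), and zQ175 and WT microglia at 12 months (4 samples each). The zQ175 line carries its expanded repeat within the mouse huntingtin gene itself.

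Microglia are the resident macrophages of the brain, and in the healthy adult they carry a set of homeostatic genes such as Tmem119 and P2ry12. When they sense interferon, type I interferon receptors signal through Jak1, Stat2 and Irf9 to promoters that carry an interferon-stimulated response element, and a broad set of antiviral genes is transcribed. Near amyloid, dying neurons or demyelinated axons, microglia instead take up lipid and debris and raise a separate set that includes Apoe, Cst7, Clec7a and Lpl, known as the disease-associated state. A sample holds the RNA of many pooled cells, so that fewer cells of a type and less RNA per cell cannot be told apart. The samples were separate pools, and the p-values measure the spread between such pools.

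The sorted cells carried the markers of microglia. Tmem119, a microglial membrane protein, had a mean of 13.21 ± 0.08 in R6/2 microglia and 13.23 ± 0.12 in WT microglia (SD, n = 6 and 5), against 4.62 ± 0.80 in R6/2 astrocytes and 4.52 ± 0.44 in WT astrocytes of the same age. Itgam, which encodes CD11b, averaged 9.13 ± 0.22 in R6/2 microglia and 9.21 ± 0.19 in WT microglia, and 3.23 ± 0.10 in R6/2 astrocytes and 3.15 ± 0.09 in WT astrocytes. Slc1a2, the gene of GLT1, ran the other way, with 7.45 ± 0.47 in R6/2 microglia and 8.19 ± 0.71 in WT microglia against 13.30 ± 0.10 in R6/2 astrocytes and 13.43 ± 0.02 in WT astrocytes. The probe sets for huntingtin detect the mouse gene and were no check of the human transgene (Htt 9.26 ± 0.24 in R6/2 microglia and 9.30 ± 0.37 in WT microglia). Correlations between arrays of a group across probe sets were 0.979 to 0.991 in R6/2 microglia and 0.977 to 0.990 in WT microglia. The mean of the Y-linked genes was 7.52 to 9.03 in the R6/2 samples, whereas among WT samples it was 3.17 in sample 12 and 3.85 in sample 20 and 8.27 to 8.79 in the others. The counts were therefore also taken without WT samples 12 and 20.

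In R6/2 microglia at 12 weeks, 301 genes were higher and 426 lower than in WT microglia (limma, adjusted p below 0.05). These were 2.52% and 3.56% of the tested genes, or 6.08% in all. The higher genes had the larger differences. Their median log2 difference was 0.86, against -0.48 for the lower genes, and 125 of them were above 2-fold and 38 above 4-fold, while 43 of the lower genes were above 2-fold and 2 above 4-fold. All 6 R6/2 samples lay above the WT mean for 297 of the 301 higher genes and below it for 418 of the 426 lower genes. These genes were called from the same samples, which favours such agreement, and its share over all tested genes was not taken. The groups did not overlap for 180 of the higher and 211 of the lower genes, where 4.02% of all tested genes had no overlap (1.69% with R6/2 higher and 2.33% with R6/2 lower). The median over all tested genes was -0.05. The counts were 212 higher and 249 lower with the mean of Y-linked genes in the model, 213 and 262 without WT samples 12 and 20, 198 and 161 with only the 12-week samples in the fit, and 205 and 174 with the mean of border macrophage markers as a covariate.

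**Figure D1:**
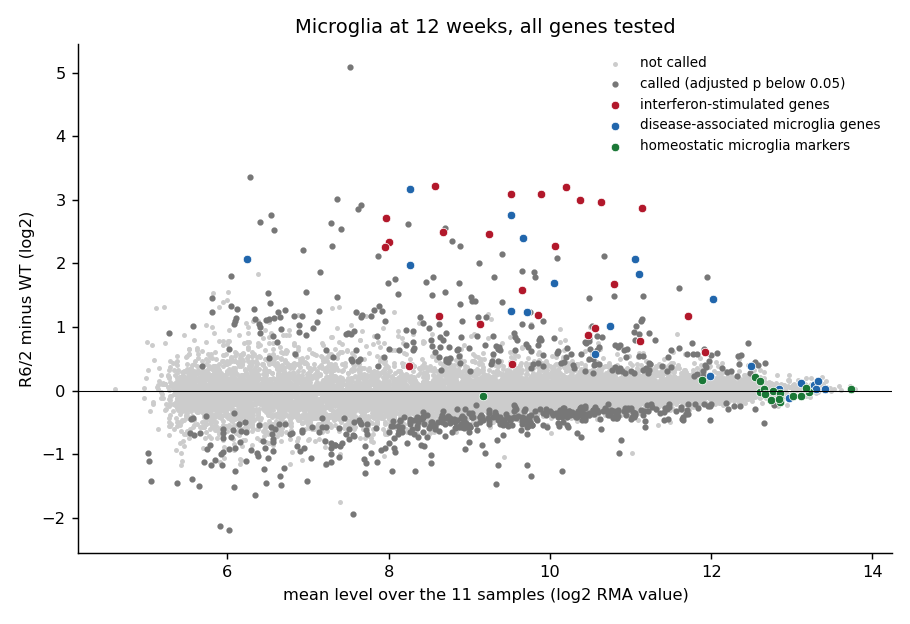
Log2 difference of R6/2 over WT microglia at 12 weeks (vertical axis) against the mean log2 level of the gene (horizontal axis) for the 11958 tested genes, each 1 point, with interferon-stimulated, disease-associated and homeostatic genes in colour. The interferon-stimulated genes (median 2.26) and many of the disease-associated genes (median 1.12) lie above the cloud, and the homeostatic genes (-0.18 to 0.22) lie on the zero line.

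Nearly all interferon-stimulated genes were higher in R6/2 microglia. Of the 25 tested, 23 were higher and 0 lower, where 2.52% of all tested genes were higher. The 25 genes had a median log2 difference of 2.26 beside -0.05 for all tested genes, and for 22 of them the groups did not overlap. The mean over the list was 10.54 to 10.75 in the R6/2 samples and 8.48 to 9.05 in the WT samples. The Gbp2 and Gbp3 differences of 0.38 and 0.41 did not pass the test. Depending on the alternative, 22 to 24 of the 25 genes were called. Isg15 and Ifi44 were not analysed here, because no probe set with a single gene symbol named them.

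Promoter sequences of Oas1a, Ifit3, Ifit1, Ifi213 and Cst7, which all rose, are given as examples. Oas1a, Ifit3 and Ifit1 are from the interferon-stimulated list, Ifi213 is a p200 gene described below, and Cst7 is from the disease-associated list. These windows do not show what whole sets of genes share. They are from RefSeq annotation of the mouse assembly GRCm38.p6, run 5′ to 3′ on the strand of the gene from 250 bases before the start to 50 bases after it, and have in capitals each match to GAAANNGAAA, the core of the interferon-stimulated response element, or to its reverse complement TTTCNNTTTC.
Oas1a, chr5:120907476-120907775, minus strand: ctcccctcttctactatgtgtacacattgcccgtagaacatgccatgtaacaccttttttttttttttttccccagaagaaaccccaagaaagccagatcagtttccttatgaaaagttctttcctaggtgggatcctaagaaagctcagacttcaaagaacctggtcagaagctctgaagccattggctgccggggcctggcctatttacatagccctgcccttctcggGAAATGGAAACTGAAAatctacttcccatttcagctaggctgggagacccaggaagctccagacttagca
Ifit3, chr19:34583279-34583578, plus strand: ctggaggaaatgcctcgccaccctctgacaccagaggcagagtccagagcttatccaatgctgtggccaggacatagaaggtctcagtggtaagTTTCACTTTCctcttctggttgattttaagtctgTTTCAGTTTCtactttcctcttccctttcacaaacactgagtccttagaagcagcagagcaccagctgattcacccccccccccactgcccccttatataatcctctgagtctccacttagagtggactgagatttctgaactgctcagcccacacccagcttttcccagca
Ifit1, chr19:34640639-34640938, plus strand: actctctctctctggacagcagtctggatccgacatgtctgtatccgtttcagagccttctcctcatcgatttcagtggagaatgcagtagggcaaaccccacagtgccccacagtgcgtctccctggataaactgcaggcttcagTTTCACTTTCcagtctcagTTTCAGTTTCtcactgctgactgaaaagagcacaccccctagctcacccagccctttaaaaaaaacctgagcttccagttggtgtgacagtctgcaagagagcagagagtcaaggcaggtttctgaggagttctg
Ifi213, chr1:173599223-173599522, minus strand: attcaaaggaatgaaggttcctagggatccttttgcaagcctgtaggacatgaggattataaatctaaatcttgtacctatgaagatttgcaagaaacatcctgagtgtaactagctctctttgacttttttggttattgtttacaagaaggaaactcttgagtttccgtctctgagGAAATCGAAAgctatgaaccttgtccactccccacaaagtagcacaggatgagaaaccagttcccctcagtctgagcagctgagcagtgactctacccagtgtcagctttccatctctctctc
Cst7, chr2:150570165-150570464, plus strand: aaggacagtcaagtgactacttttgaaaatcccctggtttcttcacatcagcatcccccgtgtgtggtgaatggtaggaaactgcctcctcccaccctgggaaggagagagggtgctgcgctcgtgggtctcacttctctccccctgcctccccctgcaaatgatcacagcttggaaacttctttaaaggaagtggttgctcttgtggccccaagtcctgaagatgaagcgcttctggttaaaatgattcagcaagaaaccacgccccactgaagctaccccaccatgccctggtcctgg
Oas1a had 2 matches, which overlap and begin at positions -20 and -14 from the start site. Ifit3 had 2, at -156 and -122, Ifit1 had 2, at -104 and -85, and Ifi213 had 1, at -73. None of these letters occurred in the Cst7 window, from which nothing follows about the factors that act on it. Searched on both strands, the motif was in 3.44% of the 32851 mouse promoters of the table and in 3.76% of the 9732 tested genes that have a promoter there. It was in 32 of 245 genes called higher (13.1%) and in 7 of 343 called lower (2.04%). Of the 20 genes called higher with the smallest p, 13 had a promoter in the table, and 4 of these held the motif (30.8%). Of the gene lists, 11 of 16 interferon-stimulated genes (68.8%) and 0 of 18 disease-associated genes held it. The lists were chosen with earlier results of these data known. Interferon-stimulated genes are named for their answer to interferon, so that their share is no independent check. A match is a run of letters and was not tested as a binding site.

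Several members encode enzymes of the response to viral RNA or proteins that bind it. Oas1a, a synthetase of the 2'-5' oligoadenylates that switch on RNase L, had a lowest, median and highest value of 11.30, 11.71 and 11.81 in R6/2 microglia, against 8.5, 8.76, 8.70, 8.23 and 8.04 in WT samples 12, 14, 16, 18 and 20, an order kept for all WT values given here. Every R6/2 sample was above every WT sample, sample 17 being the lowest of its group, and the log2 difference was 3.21 ± 0.14 (SE), or 9.23-fold (limma, adjusted p = 2.74e-12). Ifit3, an RNA-binding tetratricopeptide protein, had 11.66, 12.01 and 12.09 in R6/2 microglia, against 8.77, 9.05, 9.47, 8.69 and 9.03 in WT microglia. Its groups were also apart, again with R6/2 sample 17 lowest, by 2.97 ± 0.13 or 7.86-fold (adjusted p = 2.74e-12). Its neighbour Ifit1 had 9.04, 9.20 and 9.33 in R6/2 microglia and 6.03, 6.51, 6.96, 6.43 and 6.49 in WT microglia. The R6/2 values lay close together and clear of the WT values, 2.71 ± 0.18 higher (adjusted p = 1.8e-09). Ifit2 rose by 3.09 ± 0.14, Oasl2 by 3.22 ± 0.21, the GTPase Mx1 by 2.28 ± 0.14 and the radical-SAM enzyme Rsad2 (viperin) by 2.47 ± 0.20.

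Feedback and transcription factors of the pathway moved with them. Usp18, the protease that removes ISG15 and dampens the receptor, had 11.12, 11.30 and 11.57 in R6/2 microglia, against 8.02, 8.49, 8.37, 8.25 and 7.88 in WT microglia. No values overlapped, and the difference was 3.10 ± 0.14, or 8.55-fold (adjusted p = 6.34e-12). Irf7, the factor that amplifies type I interferon transcription, had 9.54, 9.86 and 10 in R6/2 microglia and 7.12, 7.5, 7.76, 6.91 and 7.30 in WT microglia. The groups were separated by 2.49 ± 0.15, or 5.61-fold (adjusted p = 8.23e-10). Stat2 and Irf9, which act in the complex that binds the response element, rose less, by 1.05 ± 0.10 and 0.88 ± 0.08. Rtp4, a chaperone of membrane receptors induced by interferon, had 11.58, 11.76 and 11.81 in R6/2 microglia and 8.64, 8.73, 9.08, 8.77 and 8.46 in WT microglia. It was 8.01-fold higher with no overlap (3.0 ± 0.12, adjusted p = 2.74e-12).

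Receptors and sensors upstream of these genes had smaller differences, where 2.52% of all tested genes were higher and 3.56% lower. Of 17 tested genes of interferon reception and signalling, 3 were higher, namely the RNA sensors Ifih1 (0.79 ± 0.09) and Ddx58 (0.47 ± 0.07) and the factor Irf1 (0.57 ± 0.12). Jak1, the receptor kinase, and Sting1, the adaptor of DNA sensing, were lower, by -0.22 ± 0.06 and -0.25 ± 0.07, and both calls were lost when R6/2 sample 11 or 15 or WT sample 16 or 20 was left out. The receptor chains Ifnar1 (-0.21) and Ifnar2 (-0.14) and the DNA sensor Cgas (0.14) did not pass the test. The median of the list was 0.03.

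Gene families outside that list were grouped by symbol after their values had been seen. Their counts stand beside 2.52% of all tested genes called higher. All 5 tested p200 genes, which encode nucleic acid sensors of the Ifi200 cluster, were higher. Ifi213 had 7.16, 7.85 and 8.37 in R6/2 microglia, against 4.29, 4.96, 5.01, 4.38 and 3.60 in WT microglia. No WT sample came within 2 log2 units of an R6/2 sample (adjusted p = 2.87e-08), and all 5 WT values were under the limit of 5.43 for dim probe sets, so that no fold is given. At 6 weeks Ifi213 averaged 7.12 in R6/2 and 4.75 in WT microglia, so that it was tested only through its R6/2 values. Ifi204 rose by 2.92 ± 0.16, and Ifi209, Ifi207 and Ifi202b by 2.55, 2.54 and 2.27. These genes are near copies of each other, so that probes may detect more than 1 of them. Ifi44l, an interferon-induced gene of no family listed here, had 9.32, 9.75 and 10.52 in R6/2 microglia and 6.13, 6.13, 4.03, 4.03 and 3.42 in WT microglia. The groups did not overlap (adjusted p = 0.000145), and no fold is given because WT samples 16, 18 and 20 were under that limit. Of 8 synthetase genes 6 were higher, of 6 Schlafen genes 3 (Slfn2 by 2.12 ± 0.14), of 5 guanylate-binding protein genes 1 (Gbp6, 2.53 ± 0.23) and of 4 immunity-related GTPase genes 1 (Irgm1, 1.06 ± 0.10).

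**Figure D2:**
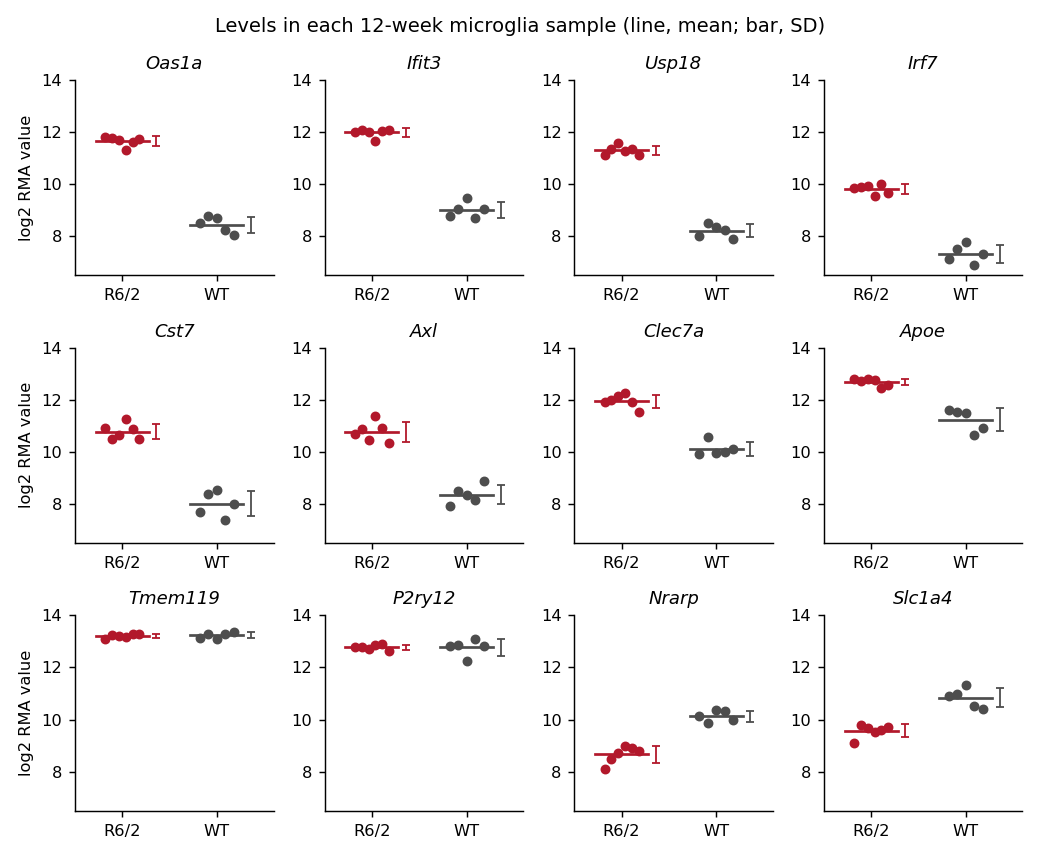
Log2 expression of 12 genes in each R6/2 (left) and WT (right) microglia sample at 12 weeks, 1 point per sample, with the mean as a line and the SD as a bar (n = 6 and 5). Oas1a, Ifit3, Usp18, Irf7, Cst7, Axl, Clec7a and Apoe are higher in every R6/2 sample than in any WT sample, Nrarp and Slc1a4 lower, and Tmem119 and P2ry12 overlap.

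Disease-associated microglia genes were the other large group that rose. Of 22 tested, 14 were higher and 0 lower, with a median of 1.12 beside -0.05 for all genes, and 13 had no overlap between groups, where 2.52% of all tested genes were called higher. The list mean was 11.44 to 11.89 in R6/2 samples and 10.32 to 10.68 in WT samples. Depending on the alternative, 12 to 15 were called, and leaving out any 1 sample gave 13 to 14. Spp1, Cd63 and Lilrb4a were not analysed here.

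Cst7, the cysteine protease inhibitor cystatin F, had 10.48, 10.75 and 11.27 in R6/2 microglia, against 7.68, 8.40, 8.54, 7.39 and 8.01 in WT microglia. The lowest R6/2 value was above the highest WT value by nearly 2 log2 units, and the difference was 2.77 ± 0.21, or 6.84-fold (adjusted p = 1.42e-08). Clec7a (dectin-1), a lectin receptor for glucans, had 11.51, 11.95 and 12.24 in R6/2 microglia and 9.92, 10.55, 9.95, 9.99 and 10.12 in WT microglia. It was higher in every R6/2 sample, by 1.84 ± 0.17 or 3.58-fold (adjusted p = 2.68e-07). Axl, a receptor tyrosine kinase for dying cells that also answers to interferon, had 10.34, 10.77 and 11.37 in R6/2 microglia and 7.91, 8.49, 8.36, 8.16 and 8.88 in WT microglia. The groups were apart by 2.40 ± 0.22, or 5.30-fold (adjusted p = 2.62e-07), and by 1.25 when its 2 probe sets were averaged. Itgax (CD11c) rose by 1.25 ± 0.24 and the lectin Lgals3 by 1.23 ± 0.21.

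Several of the members that rose handle lipids. Apoe, the main lipid carrier of the brain, had 12.46, 12.74 and 12.78 in R6/2 microglia, against 11.62, 11.52, 11.50, 10.65 and 10.91 in WT microglia. The R6/2 values were close together and all above WT, by 1.44 ± 0.14 or 2.71-fold (adjusted p = 7.16e-07). Ch25h, which makes 25-hydroxycholesterol, had 9.14, 9.64 and 10.43 in R6/2 microglia and 6.41, 7.08, 6.94, 5.84 and 6.46 in WT microglia. It was 8.98-fold higher with no overlap (3.17 ± 0.31, adjusted p = 7.04e-07). The lipase Lpl had 11.31, 12.02 and 12.61 in R6/2 microglia and 9.30, 9.75, 10.42, 10.11 and 10.05 in WT microglia, a separation of 2.07 ± 0.25. The fatty acid-binding protein Fabp5 was higher by 1.69 ± 0.36, but WT sample 14 (10.63) lay within the R6/2 range. Among 14 apolipoprotein genes, a family taken by symbol after the values had been seen, 4 were higher, where 2.52% of all tested genes were. Apoc1 had 8.13, 8.67 and 9.65 in R6/2 microglia and 5.52, 6.02, 5.44, 5.74 and 5.87 in WT microglia. Its groups were far apart, by 3.02 ± 0.24 or 8.11-fold (adjusted p = 4.45e-08).

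A growth factor and a glycoprotein of the set also rose. Igf1, insulin-like growth factor 1, had 8.86, 9.15 and 9.59 in R6/2 microglia, against 7.95, 7.93, 6.95, 6.5 and 6.62 in WT microglia. WT samples 12 and 14 were about 1 log2 unit above the other WT samples but still below all R6/2 samples (1.98 ± 0.24). Gpnmb, a glycoprotein of lipid-laden macrophages, had 6.01, 7.11 and 8.24 in R6/2 microglia and 4.85, 5.04, 5.73, 4.88 and 5.06 in WT microglia. It was higher by 2.07 ± 0.30 with a wide R6/2 spread. All its WT values but the highest were under the limit of 5.43 for dim probe sets, so that no fold is given. The 8 members that were not called lay between -0.11 and 0.23, and 4 of them encode lysosomal cathepsins (Ctsb 0.09, Ctsd 0.02, Ctsl 0.02, Ctsz 0.15). Tyrobp, the adaptor of Trem2, differed by 0.02. Of 20 tested lysosome genes, 1 was higher (Gla, 1.41 ± 0.33, with overlapping groups), and of 12 cathepsin genes Ctse rose (1.88 ± 0.25). Among all tested genes 2.52% were higher.

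Homeostatic genes did not pass the test in either direction, where 6.08% of all tested genes were called. In a list of 18 genes, 0 calls is near that share and does not set the list apart. The 18 tested members lay between -0.18 and 0.22, with a median of -0.03, and none was called (limma), while 2 were lower and 0 higher at an unadjusted p below 0.05. Tmem119 differed by -0.02 ± 0.06, P2ry12 by 0.00 ± 0.11 and Trem2 by -0.09 ± 0.06. The fractalkine receptor Cx3cr1 differed by -0.18 ± 0.08 (adjusted p = 0.183). The list mean was 12.60 to 12.66 in R6/2 samples and 12.40 to 12.77 in WT samples.

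**Figure D3:**
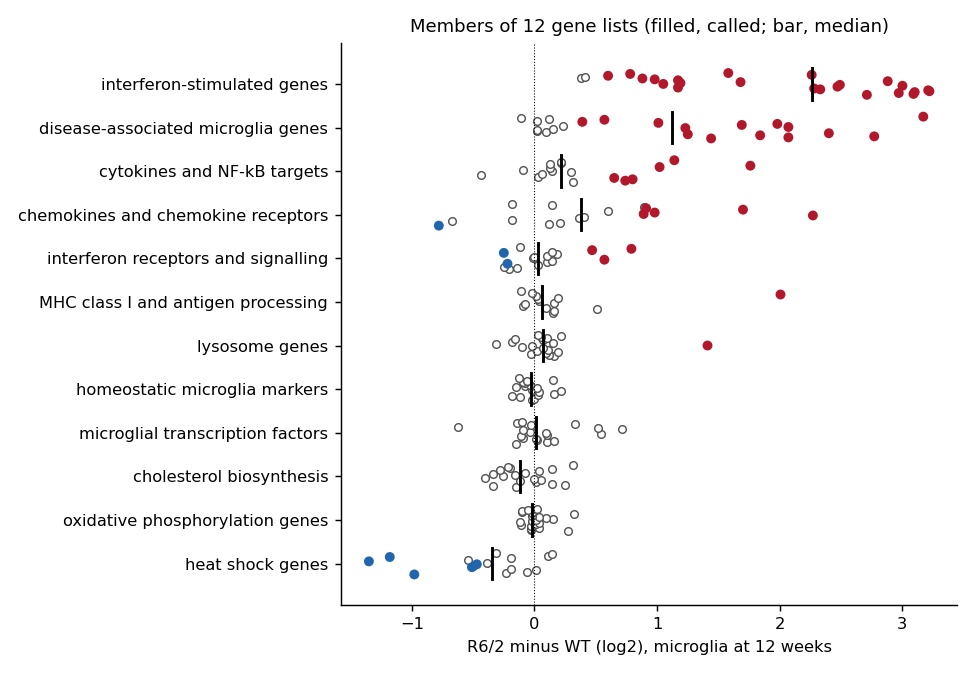
Log2 difference of R6/2 over WT microglia at 12 weeks (horizontal axis) for the tested members of 12 gene lists, 1 point per gene, filled where called, with the median as a bar. Interferon-stimulated genes (23 of 25 higher) and disease-associated genes (14 of 22 higher) lie to the right, heat shock genes (5 of 16 lower) to the left, and homeostatic and cholesterol synthesis genes around zero with 0 called.

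Some cytokine and chemokine genes differed. Of all tested genes 2.52% were higher and 3.56% lower. Of 17 tested cytokine and NF-kB target genes, 6 were higher and 0 lower, with a median of 0.22. Il1rn, the interleukin-1 receptor antagonist, had 7.92, 9.01 and 9.85 in R6/2 microglia, against 6.54, 7.69, 7.52, 7.19 and 6.67 in WT microglia. The groups were apart, but the lowest R6/2 value was close to WT sample 14 (1.76 ± 0.31, adjusted p = 0.00158). Il1b, interleukin-1 beta, had 12.39, 12.86 and 13.10 in R6/2 microglia and 12.10, 12.44, 12.06, 12.06 and 11.60 in WT microglia. Its groups overlapped at WT sample 14, and the difference was 0.74 ± 0.16 (adjusted p = 0.00701). Tnf (0.65 ± 0.17), Il6 (0.80), Il12b (1.14) and the prostaglandin synthase Ptgs2 (1.02) were the others. The count was 3 without R6/2 sample 13, without R6/2 sample 17 or without WT sample 18, 3 with the Y-linked or the border macrophage covariate, and 2 without WT samples 12 and 20. Of 16 chemokine genes 5 were higher and 1 lower, with a median of 0.38, and 3 were called higher with either covariate and 2 without WT samples 12 and 20. Cxcl1, a neutrophil attractant, had 7.04, 8.65 and 8.99 in R6/2 microglia and 6.67, 6.95, 6.01, 5.39 and 5.27 in WT microglia. The R6/2 minimum was just above WT sample 14, with a difference of 2.27 ± 0.36. Ccl2, the monocyte attractant, ran the other way, with 10.05, 10.55 and 10.83 in R6/2 microglia and 11.47, 11.56, 11.80, 10.80 and 10.87 in WT microglia. WT samples 18 and 20 met the upper end of the R6/2 range (-0.78 ± 0.16, adjusted p = 0.00608), and no call was left with only the 12-week samples (adjusted p = 0.0687).

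Antigen presentation and complement genes were mostly not called, where 2.52% of all tested genes were higher and 3.56% lower. Of 14 tested genes of MHC class I and antigen processing, 1 was higher, Nlrc5 (2.00 ± 0.24), the transactivator of class I genes. The mean of that list was 11.45 to 11.56 in R6/2 samples and 11.14 to 11.41 in WT samples, without overlap, and the median difference was 0.06. Of 9 class II genes, the invariant chain Cd74 was higher (0.54) and the costimulator Cd86 lower (-0.45 ± 0.09). Of 10 complement genes C2 was higher (1.11), while C3 and C4b were not analysed here. Of 18 genes of phagocytosis and lipid sensing, Axl, the scavenger receptor Msr1 (0.89) and the fatty acid transporter Cd36 (1.13) were higher, and Gas6, a ligand of Axl, was lower (-0.48).

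Among heat shock genes, which encode chaperones, the calls were downward. Of 16 tested, 5 were lower and 0 higher, with a median of -0.35, where 3.56% of all tested genes were lower. The list mean was 11.08 to 11.44 in R6/2 samples and 11.48 to 11.94 in WT samples, without overlap. Bag3, a co-chaperone of Hsp70 in aggregate clearance, had 8.90, 9.25 and 9.39 in R6/2 microglia, against 10.94, 10.63, 9.96, 10.53 and 9.76 in WT microglia. It was 2.27-fold lower, and WT samples 16 and 20 were the closest to R6/2 (-1.18 ± 0.22, adjusted p = 0.00221). Hspb1 was lower by -1.35 ± 0.33, Hspa1a by -0.98 ± 0.20, Hsph1 by -0.51 ± 0.13 and the Hsp40 gene Dnajb1 by -0.47 ± 0.10. With array weights 8 of the 16 were called lower. Of 14 genes of the unfolded protein response, Creld2 (-0.32) and Dnajc3 (-0.28) were lower.

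The genes that fell with the smallest p-values did not form a single list. Nrarp, a feedback inhibitor and target of Notch signalling, had 8.10, 8.76 and 8.98 in R6/2 microglia, against 10.13, 9.86, 10.37, 10.32 and 9.99 in WT microglia. All R6/2 samples were below all WT samples, by -1.47 ± 0.15 or 2.77-fold (adjusted p = 2.27e-06). Slc1a4, a transporter of alanine, serine and cysteine, had 9.12, 9.64 and 9.80 in R6/2 microglia and 10.90, 11, 11.32, 10.54 and 10.41 in WT microglia. It was 2.39-fold lower with no overlap (-1.26 ± 0.14, adjusted p = 4.02e-06). Sema6d, a transmembrane semaphorin, had 8.26, 8.54 and 8.80 in R6/2 microglia and 9.37, 9.44, 9.28, 9.49 and 9.67 in WT microglia. The WT samples lay close together and clear of R6/2 (-0.92 ± 0.10, adjusted p = 3.11e-06). Bank1, a signalling adaptor known from B cells, had 8.38, 8.90 and 9.16 in R6/2 microglia and 9.96, 10.05, 9.74, 9.92 and 10.31 in WT microglia, again without overlap (-1.17 ± 0.15, adjusted p = 4.4e-05). Klhdc8b (-0.99), Plppr4 (-1.26 ± 0.17), Aldh1l2, a mitochondrial folate enzyme (-1.22), and Fads6 (-0.97) followed. Slc1a4 was joined by Slc7a1 (-0.58), Slc6a8 (-0.59), Slc7a8 (-0.38) and Slc7a5 (-0.33) among 25 amino acid and related transporter genes, of which Slc6a9 was higher (0.91). Of 6 tested zinc transporter genes of the Slc30 family 4 were lower, with a family median of -0.27. Among all tested genes 3.56% were lower and 2.52% higher. These transporter families were also taken by symbol after the values had been seen.

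Some of the genes with large falls are known from other cells. Hpca, the neuronal calcium sensor hippocalcin, had 4.50, 4.90 and 5.48 in R6/2 microglia, against 7.45, 6.58, 7.46, 6.18 and 7.70 in WT microglia. Its groups did not overlap (-2.13 ± 0.30, adjusted p = 0.000139), and all R6/2 samples but the highest were under the limit of 5.43. Arpp21 (-2.19 ± 0.35) and Ddn (-1.94 ± 0.31) are also neuronal, and the R6/2 mean of Arpp21 (5.02) was under that limit. Of 8 tested pan-neuronal markers 2 were lower (Snap25 and Elavl4), with a median of -0.13, and the mean of that list was 5.51 to 5.91 in R6/2 samples and 5.73 to 6.13 in WT samples, with overlap. Of 10 tested genes of medium spiny neurons, the main neurons of the striatum, 3 were lower, and the mean of that list was 5.16 to 5.47 in R6/2 samples and 5.61 to 6.58 in WT samples, WT sample 20 being the highest. The count was 1 with the Y-linked or the border macrophage covariate or without WT samples 12 and 20. The part of neuronal RNA in these differences was not tested. Natural killer and T cell genes, a list added after the values had been seen, had 9 lower and 1 higher of 21, with a median of -0.99. Among all tested genes 3.56% were lower and 2.52% higher. Klra7, a natural killer receptor, had 4.61, 4.85 and 5.27 in R6/2 microglia and 5.98, 6.43, 6.38, 6.04 and 6.78 in WT microglia. No values overlapped (-1.40 ± 0.20, adjusted p = 0.000161), and all 6 R6/2 values were under the limit for dim probe sets. The list mean was 6.30 to 7.08 in R6/2 samples, sample 17 being the highest, and 6.87 to 7.69 in WT samples, sample 20 being the highest. Without WT sample 20, 1 of these genes was called lower, and 2 were without R6/2 sample 11, R6/2 sample 13 or WT sample 16. Leaving out R6/2 sample 19 or 21 left 3, and leaving out R6/2 sample 15, WT sample 14 or WT sample 18 left 4. Cd3e, the T cell receptor chain, was higher (1.10 ± 0.17).

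**Figure D4:**
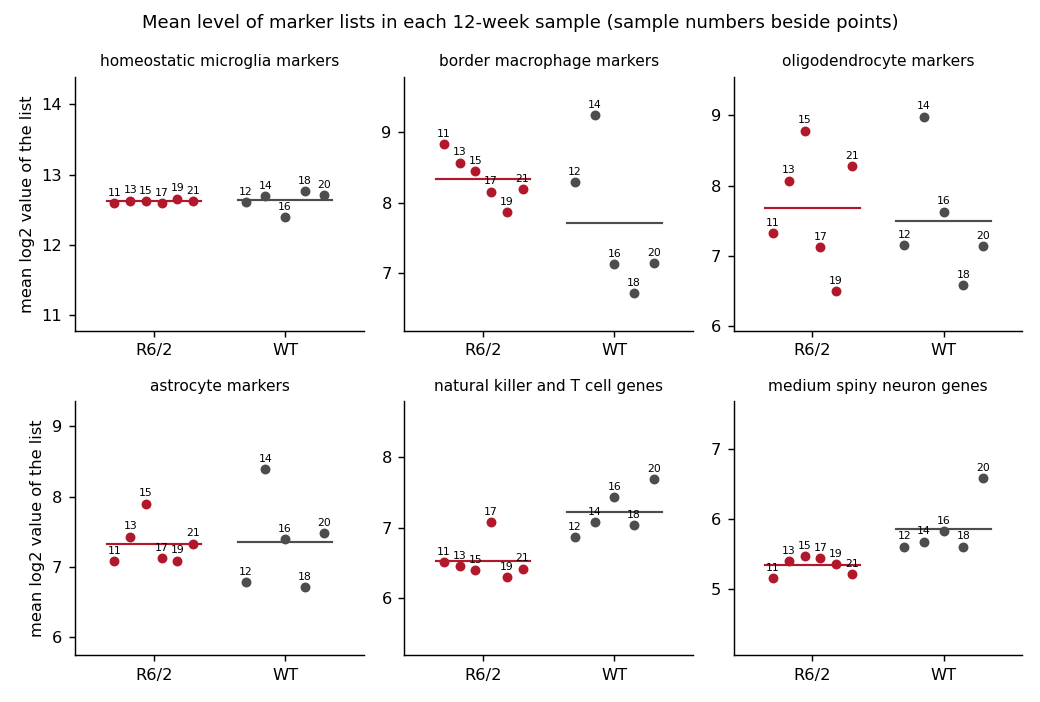
Mean log2 level of 6 marker lists in each R6/2 (left) and WT (right) microglia sample at 12 weeks, labelled by sample number. The homeostatic mean is nearly level (12.40 to 12.77), the border macrophage, oligodendrocyte and astrocyte means spread widely within both groups, and the medium spiny neuron mean is lower in all R6/2 samples (5.16 to 5.47) than in any WT sample (5.61 to 6.58).

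Markers of other cells in the sort varied within both groups. The counts of called markers stand beside 2.52% of all tested genes called higher and 3.56% called lower. The mean of 10 border macrophage markers was 7.87 to 8.83 in R6/2 samples and 6.72 to 9.25 in WT samples. Of the WT samples, sample 14 was the highest and sample 18 the lowest. WT samples 16, 18 and 20 (7.13, 6.72 and 7.14) lay below every R6/2 sample, and the group means were 8.34 in R6/2 and 7.71 in WT. Of these markers, Cd36 was called higher, and the median difference was 0.72. Oligodendrocyte markers had means of 6.5 to 8.78 in R6/2 samples and 6.59 to 8.98 in WT samples, and 0 of 12 were called (0 at an unadjusted p below 0.05). Astrocyte markers had means of 7.08 to 7.90 in R6/2 samples and 6.71 to 8.39 in WT samples, and 0 of 19 were called (1 higher and 1 lower at an unadjusted p below 0.05). Endothelial and mural markers had means of 6.23 to 7.19 in R6/2 samples and 6.13 to 7.66 in WT samples, and of 15 tested 1 was higher (Cspg4) and 1 lower (Pecam1). Oligodendrocyte precursor markers had means of 5.14 to 5.67 in R6/2 samples and 4.91 to 5.44 in WT samples, and of 3 bright enough to be tested 1 was higher, again Cspg4, with a median of 0.61. Blood leukocyte markers had means of 7.09 to 8.04 in R6/2 samples and 7.18 to 7.98 in WT samples, and of 14 tested Cd3e was higher. The part of these cells in the results was not tested. With the border macrophage covariate 22 of 25 interferon-stimulated genes were called. Over all genes that covariate gave 205 higher and 174 lower, against 301 and 426 without it.

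Hormone- and clock-driven genes gave a few calls, where 2.52% of all tested genes were higher and 3.56% lower. Fkbp5, a co-chaperone of the glucocorticoid receptor and among its best known targets, had 10.69, 10.96 and 11.39 in R6/2 microglia, against 9.98, 9.74, 10.38, 10.02 and 10.40 in WT microglia. All R6/2 samples were above WT, by 0.86 ± 0.14 (adjusted p = 0.000737). Of 16 glucocorticoid-induced genes 2 were higher, with a median of 0.39, and the other, Zbtb16 (1.14), was lost with either covariate. Of 15 clock genes, Arntl (-0.66 ± 0.12) and Rora (-0.59) were lower, and Per3 (0.78 ± 0.15) and Per2 (0.63) higher, and with the Y-linked covariate 1 was lower and 1 higher. The labels do not state the time of day of the dissections. No gene passed limma's test at an adjusted p below 0.05 among 19 of cholesterol synthesis, 15 of autophagy, 21 of oxidative phosphorylation, 16 of glycolysis and 25 proteasome subunits. At an unadjusted p below 0.05 the cholesterol genes had 1 higher and 4 lower, the autophagy genes 1 lower, the glycolysis genes 2 higher, the proteasome subunits 1 lower and the oxidative phosphorylation genes 0.

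At 6 weeks, early in the course of the R6/2 mouse, interferon-stimulated genes already differed. In all, 49 genes were called in microglia at that age (0.410% of those tested), 46 of them higher (0.385%) and 3 lower (0.0251%). All 46 were also called higher at 12 weeks, which is 15.3% of the 301. The ages had separate samples but shared 1 estimate of each gene's spread, which favours such overlap. Of the interferon-stimulated genes 19 of 25 were higher at 6 weeks (median 1.44), and of the disease-associated genes 0 of 22 (median -0.02, with 2 higher at an unadjusted p below 0.05).

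The difference between the effects at 12 and 6 weeks was tested directly and passed for 30 genes (0.251%), with 24 upward (0.201%) and 6 downward (0.0502%). Of the disease-associated genes 8 of 22 were among the upward genes, and of the interferon-stimulated genes 1 of 25. Cst7 averaged 7.51 ± 0.41 in R6/2 and 7.41 ± 0.20 in WT microglia at 6 weeks (SD, n = 5 each), and 10.78 ± 0.30 in R6/2 and 8.01 ± 0.48 in WT microglia at 12 weeks. Its effect grew by 2.68 ± 0.30 (adjusted p = 0.000237). Oas1a averaged 10.35 ± 0.27 in R6/2 and 8.55 ± 0.13 in WT microglia at 6 weeks, a difference of 1.8. Its effect was larger at 12 weeks by 1.40 ± 0.20 (adjusted p = 0.00129). The changes in effect were 3.20 for Ch25h, 1.8 for Clec7a, 1.81 for Axl, 2.35 for Gpnmb and 1.11 for Apoe. For Gpnmb, most WT values at 12 weeks were under the limit for dim probe sets.

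For Igf1 the WT means of both ages were further apart than the R6/2 means. It averaged 8.71 ± 0.33 in R6/2 and 9.03 ± 0.30 in WT microglia at 6 weeks, and 9.16 ± 0.27 in R6/2 and 7.19 ± 0.70 in WT microglia at 12 weeks. The effects differed by 2.30 (adjusted p = 0.00313), and the change with age within a genotype was not tested. Nrarp averaged 10.35 ± 0.28 in R6/2 and 10.41 ± 0.21 in WT microglia at 6 weeks, and 8.66 ± 0.33 in R6/2 and 10.13 ± 0.21 in WT microglia at 12 weeks. The older R6/2 samples had the lowest of these means, and the difference of effects was -1.41 (adjusted p = 0.00447). Slc1a4 (-1.15), Plppr4 (-1.35) and Sema6d (-0.77) also passed downward. The 30 calls were 50 without WT sample 14, 46 without WT sample 16 and 19 with the Y-linked covariate.

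**Figure D5:**
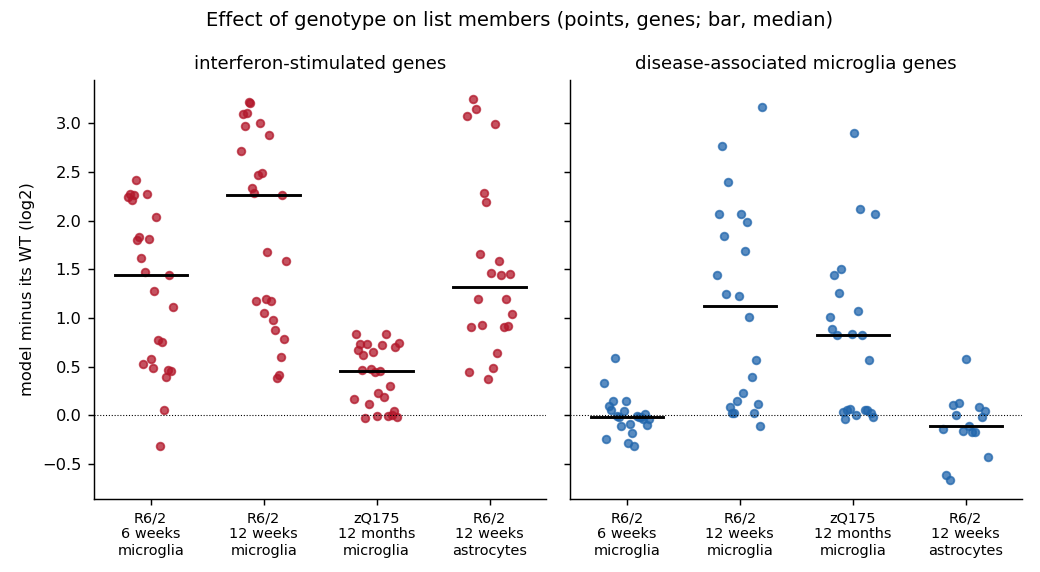
Log2 difference of mutant over WT for each interferon-stimulated gene and each disease-associated gene, 1 point per gene with the median as a bar, in R6/2 microglia at 6 and 12 weeks, zQ175 microglia at 12 months and R6/2 astrocytes at 12 weeks. Interferon-stimulated medians are 1.44, 2.26, 0.46 and 1.31 in that order, and the disease-associated genes are centred on zero at 6 weeks (-0.02) and above it at 12 weeks (1.12) and in zQ175 (0.82).

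In zQ175 microglia at 12 months, 384 genes were called (3.15%), with 2.80% of tested genes higher and 0.344% lower. There 12 of 22 disease-associated genes were higher (median 0.82) and 3 of 25 interferon-stimulated genes (Cxcl10, Usp18 and Ifit2, median 0.46). The effects of R6/2 at 12 weeks and zQ175 at 12 months differed for 232 genes (1.92%), 84 of them upward (0.694%) and 148 downward (1.22%). Of the interferon-stimulated genes 20 of 25 had the larger effect in R6/2, and of the disease-associated genes 3 of 22. These 3 were Cst7 (1.33), Lpl (1.17) and Clec7a (1.02). In that order, their means at 12 months were 11.73, 12.81 and 12.09 in zQ175 and 10.29, 11.92 and 11.27 in WT microglia. At 12 weeks they were 10.78, 11.99 and 11.95 in R6/2 and 8.01, 9.93 and 10.10 in WT microglia. Both the mutant and the WT means of these genes were thus higher at 12 months. The difference of effects was 2.59 for Oas1a, 2.37 for Usp18 and 2.05 for Irf7. Oas1a averaged 9.38 ± 0.38 in zQ175 and 8.76 ± 0.22 in WT microglia at 12 months (SD, n = 4 each). Retnla, a secreted protein of alternatively activated macrophages, was higher in R6/2 (1.23 ± 0.23) and lower in zQ175 (-1.96), a difference of 3.19. Nrarp averaged 9.51 ± 0.27 in zQ175 and 8.77 ± 0.27 in WT microglia at 12 months, and its effects differed by -2.21. Oligodendrocyte markers (3 of 13 higher, median 1.09) and endothelial and mural markers (1 of 16, median 1.23) moved with the zQ175 group, and their part was not tested. Age and model differ together here and cannot be told apart, and leaving out WT sample 34 of 12 months gave 122 genes and leaving out zQ175 sample 31 gave 126.

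In R6/2 astrocytes at 12 weeks, where 28.7% of tested genes were called (3507), 21 of 22 interferon-stimulated genes were higher (median 1.31). Of 15 disease-associated genes 0 were higher there (2 at an unadjusted p below 0.05), and 1 was lower, Axl (-0.66). Microglia and astrocyte samples carry the same numbers, and whether a number marks 1 pool is not stated by the labels. The effects in microglia and astrocytes differed for 986 genes (8.0%), 392 of them upward in microglia (3.18%) and 594 downward (4.82%). A gene could enter this test while dim in 1 of the fractions. Among the 10758 genes bright enough to be tested in each fraction by itself, 310 were upward and 541 downward. Of the 22 interferon-stimulated genes tested in both fractions, 7 had the larger effect in microglia, with Ifit2 at 2.65 and Ifit3 at 2.07. Usp18 was high in both fractions, with 11.30 ± 0.17 in R6/2 and 8.20 ± 0.25 in WT microglia and 10.58 ± 0.24 in R6/2 and 7.33 ± 0.36 in WT astrocytes. Of the 15 disease-associated genes tested in both fractions, 7 had the larger effect in microglia, among them Axl (3.06) and Lpl (2.68). Cst7, Clec7a, Ch25h, Igf1 and Itgax also passed but were too dim in astrocytes to be tested there, Cst7 averaging 3.35 ± 0.29 in R6/2 astrocytes and 3.29 ± 0.20 in WT astrocytes. Cholesterol synthesis genes were lower in astrocytes (19 of 19, median -0.89), and 0 of 19 were called in microglia. For 12 of these 19 the difference between the fractions passed the test. Hpgd, which breaks down prostaglandins, averaged 12.53 ± 0.11 in R6/2 and 12.11 ± 0.09 in WT microglia, and 8.70 ± 0.35 in R6/2 and 5.24 ± 0.42 in WT astrocytes. Its effect was smaller in microglia by -3.04 on the log2 scale, and its WT astrocyte mean was under the limit of 5.63 for dim probe sets in that fit.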

How the data were processed

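The authors deposited log2 values for 45101 probe sets, which the submitters' processing notes tie to affy, RMA and limma. These notes give no versions and do not say which arrays shared a normalization, and nothing was renormalized for the reported values. Of the probe sets, 34958 had 1 gene symbol, 932 several and 9211 none, and only the first kind named a gene. Of these, 34754 matched a RefSeq gene identifier, with 0 symbols changed. The brightest probe set by mean over all 111 arrays stood for its gene, and a gene was tested where its mean reached the 40th percentile of all probe sets in the fit.

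Differences were tested with limma 3.58.1 in R 4.3.3, two-sided, with Benjamini-Hochberg adjustment over all tested genes and a call at an adjusted p below 0.05. Microglia of R6/2 and WT mice at 6 and 12 weeks entered 1 fit of group means, so that both ages share 1 spread per gene. Differences between effects were contrasts in fits that also held the astrocyte or the zQ175 and WT microglia groups. The genes named are the 20 with the smallest p in each direction, the 12 with the largest change in each direction among those without overlap, up to 6 of each list, a fixed set of anchors (5 of which no single-symbol probe set named) and 6 in each direction of each difference. Members and lists were chosen with earlier results of these data known, and the families by symbol and the natural killer and T cell list after their values were seen. On simulated data with 200 of 11958 genes changed, the 12-week test recovered 60% of changes of 0.5 and 93% of changes of 1 on the log2 scale. The number of arrays limits the precision. The alternatives were other filters, probe set means, renormalization, other spread models, array weights, covariates, the 12-week samples alone, a replicate block and leaving out samples. The endothelial and border macrophage covariates were chosen after seeing the data.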

Additional observations from a re-analysis of the deposited data

Results flagged for a closer look

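In 13 of the 260 groups of samples looked at, for genes named in the text, the highest or the lowest sample stood apart from the rest of its group, and chance alone gives about 1 in 20. R6/2 sample 17 was the lowest for Oas1a (11.30, next 11.62) and for Ifit3 (11.66, next 12.00), and the highest for the NADPH oxidase subunit Cybb (9.74, next 9.10) and for granzyme B, Gzmb (7.84, next 7.15). R6/2 sample 11 was the highest for Zbtb16 (8.32, next 6.61) and the lowest for the potassium channel Kcnk13 (8.84, next 9.43). WT sample 16 was the highest for Tgfb1 (11.10, next 10.47), Trem2 (13.32, next 13.15), Hdac4 (9.92, next 9.31) and Rbmx (11.38, next 11.13). WT sample 20 was the highest for Arpp21 (8.22, next 7.13) and Anxa5 (9.67, next 9.40), and WT sample 12 the lowest for Cd3e (4.96, next 5.53).

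The R6/2 effect in microglia differed between 12 and 6 weeks for 30 genes by limma's test of the difference. Among the genes named by the rule, the effect was larger at 12 weeks for Ch25h (3.20), Cst7 (2.68), Clec7a (1.8), the hexose transporter Slc2a6 (1.75), Oas1a (1.40) and the phospholipid-binding Anxa5 (0.94). It was more negative at 12 weeks for Klra7 (-1.49), Nrarp (-1.41), Plppr4 (-1.35), Slc1a4 (-1.15), Sema6d (-0.77) and Fem1b (-0.44). Klra7 averaged 5.36 in R6/2 and 5.27 in WT microglia at 6 weeks, and 4.92 in R6/2 microglia at 12 weeks. These means were under the limit of 5.43 for dim probe sets, and only its WT mean at 12 weeks (6.32) was above it.

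The effects in microglia and astrocytes at 12 weeks differed for 986 genes by the same kind of test. The microglial effect was the higher for Axl (3.06), Apoc1 (3.02), Cst7 (2.71), Ifit2 (2.65), Ifit3 (2.07) and Btbd17 (1.97). Cst7 was too dim in astrocytes to be tested there (3.35 in R6/2 and 3.29 in WT astrocytes). The astrocyte effect was the higher for Kazald1 (-3.21), Hpgd (-3.04), the homeodomain factor Pou4f1 (-2.98), Igf2bp3 (-2.74), the metalloproteinase Mmp2 (-2.64) and Polr2a (-1.24). Pou4f1 was too dim in microglia to be tested there (5.07 in R6/2 and 5.26 in WT microglia), and its WT astrocyte mean was 4.69. Igf2bp3 averaged 5.17 in R6/2 and 4.84 in WT microglia, and 5.37 in WT astrocytes. All these means were under the limit of 5.63 in that fit. Both genes entered the test only through R6/2 astrocytes (Pou4f1 7.48, Igf2bp3 8.45).

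Between R6/2 microglia at 12 weeks and zQ175 microglia at 12 months, 232 genes differed in their effect. The R6/2 effect was the higher for Retnla (3.19), Oas1a (2.59), Usp18 (2.37), Rtp4 (2.35), Ifit3 (2.30) and Irf7 (2.05). It was the lower for Nrarp (-2.21), 4930402H24Rik (-1.54), Slc1a4 (-1.25), Sema6d (-1.24), the kinase Fyn (-1.09) and Rbmx (-0.76).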

How the results depend on the processing

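The count of 727 genes at 12 weeks was 461 with the mean of Y-linked genes in the model (434 shared), 475 without WT samples 12 and 20, 359 with only the 12-week samples, 292 at an adjusted p below 0.01 and 379 with the border macrophage mean as a covariate, which was chosen after seeing the data. It was 507 to 778 when 1 sample was left out, and 569 with array weights, where 285 were higher and 284 lower. The other settings gave 605 to 758. For these the cause was not tested, except that 359 rests on fewer samples and 292 on a stricter threshold. The 30 genes whose effect differed between ages were 19 with the Y-linked covariate and 21 to 50 with 1 sample left out. The 232 that differed between R6/2 and zQ175 were 122 to 271. The 986 that differed between microglia and astrocytes were 742 to 1205 with 1 sample left out, and 1660 with a replicate block, whose consensus correlation was 0.217. There the correlations of same-numbered samples were 0.07 to 0.365 in 11 pairs, and 9 of the 11 correlated best with their own number, which is a hint from the data only. R6/2 and WT samples share no number, so that no block could be fitted at 12 weeks. Of 115 named genes called, 71 were called under every alternative. Over 3080 pairs of a named gene and an alternative, 307 lost the call, 4 gained it and 0 reversed. Array number and background limit small changes and dim genes.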

Other observations

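H2-D1, a classical class I antigen-presenting molecule, had a lowest, median and highest value of 12.55, 12.57 and 12.66 in R6/2 microglia at 12 weeks, against 12.09, 12.27, 11.83, 11.98 and 12.17 in WT samples 12, 14, 16, 18 and 20. The groups did not overlap. The log2 difference was 0.51 ± 0.52, with an adjusted p of 0.618 in the limma fit that shares its spread with the 6-week samples, and the adjusted p was 0.00747 with only the 12-week samples. The cause of that change was not tested.

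Histone genes, a family taken by symbol after the values had been seen, had 6 of 11 tested members higher in R6/2 microglia, with a median of 0.79, beside 2.52% of all tested genes. H3c4, a core histone gene, had 8.15, 8.54 and 8.74 in R6/2 microglia and 5.73, 5.36, 6.08, 6.04 and 6.00 in WT microglia. No values overlapped, and the difference was 2.63 ± 0.20. The linker histone genes H1f4 and H1f2 were higher by 2.62 ± 0.39 and 1.79 ± 0.22. Of 15 tested proliferation genes 1 was higher, Cdk1. Among 5 tested interferon genes Ifnz was higher (1.0 ± 0.23), and the 4 others lay between -1.17 and -0.03.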
